A study of Lactuca sativa with 24 samples.

Results

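Leaf transcripts were compared between the lettuce varieties Luna bionda and Falstaff after 6 days under visible light alone. The comparison rests on 6 of the 24 libraries of the study, 3 of each variety, chosen by their sample labels. Both groups were labelled as wild-type leaves on day 6 that had received no UV, and differed by label in variety only. The study also sampled both varieties at day 0 and after UVB or UVA at 0.4 W per square metre, and those 18 libraries serve here only to show how the same genes behaved in material that the comparison did not use. The labels do not tell whether a group's libraries came from different plants. The p-values thus reflect the spread from library to library, part of which may be technical.

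Lettuce is a self-pollinating leaf crop, so that plants of a variety share most of their genome, whereas varieties differ from each other across it. Most transcripts tested here either encode proteins or are long noncoding RNAs. Many long noncoding RNAs are spliced and polyadenylated like messenger RNAs, but they hold no long reading frame. Levels of long noncoding RNAs are known to vary widely between lines of a plant species. The deposited files and the RefSeq gene table give nearly all lettuce genes as locus identifiers with no product name. The genes are therefore described by identifier, kind of transcript, level and neighbours, and no function is given to them.

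Reads in genes numbered 29653670, 43276819 and 32225060 in the Luna bionda libraries, and 31581946, 829798 and 37215851 in the Falstaff libraries. Falstaff replicate 2 was thus a shallow library, and a single read in it weighs more than 1 CPM (the reads of a gene scaled to 1000000 reads in genes per library, the level used throughout). It also differed in kind. Plastid genes took 7.08% of its reads and ribosomal RNA genes 5.06%, against at most 0.00542% and 0.00182% in the other 5 libraries. Protein-coding genes took 58.1% of its reads and at least 95.6% elsewhere, and the long noncoding RNA LOC111914492 took 8.3% of its reads and at most 0.0064% elsewhere. Across genes its Spearman correlation with the other libraries lay between 0.797 and 0.801, where the other 5 libraries correlated between 0.905 and 0.967 with each other. Its batch tag belongs to a number series that no other of the 6 libraries carries, so that the values without it are also the values within a single tag series. The main counts are therefore given with and without Falstaff replicate 2.

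Leaf identity could not be checked with the plastid transcripts chosen for it. Of 9 photosynthesis genes of the plastid, 6 (psbC, psbD, psaA, psaB, rbcL and atpB) had no read in the 5 deep libraries, and psbA, the gene of the photosystem II core protein D1, lay between 0.416 and 15.7 CPM there. In Falstaff replicate 2 psbA was at 43400 CPM.

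By the names of the authors' tables the libraries would hold other conditions. All 3 Falstaff libraries and Luna bionda replicates 2 and 3 stand there under a day 0 name, and Luna bionda replicate 1 under a UVB name. The Luna bionda libraries of day 0 stand there under a day 6 control name, and those of Falstaff under a UVB name. The Falstaff libraries of UVB for 2.5 h stand under the other UVB name. The groups here follow the labels. The comparisons at day 0 and under UVB, and the interaction of variety and day, rest on the labels as well. It was not settled which of the naming schemes is right, but both give every library the same variety.

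Between the varieties, 228 of 22364 genes were called at a Benjamini-Hochberg adjusted p of 0.05 with limma, which is 1.02% of those tested. In Luna bionda 109 were higher and 119 lower, shares of 0.487% and 0.532%. Nearly all of these differences were large. The absolute log2 fold change of the called genes had a median of 7.11, and of 7.62 when genes with no read in a variety were set at their bound, against 0.54 over all genes tested. The smallest called difference was 1.90 and 217 genes differed at least 16-fold. The groups did not overlap in CPM in any called gene, but they did not overlap in 15.3% of all genes tested either (11.9% higher and 3.47% lower in Luna bionda). In reads divided by size factors, the groups of all 228 genes were likewise apart, and the background share was 14.5% (8.5% higher and 6.02% lower). Without Falstaff replicate 2, 640 of 23117 genes were called (2.77%), of which 286 favoured Luna bionda (1.24%) and 354 favoured Falstaff (1.53%). All 228 genes were among them with the same direction. The other 412 genes had a median absolute log2 fold change of 5.60, and 264 of them had no read in Falstaff replicate 2. In bulk leaf RNA, fewer cells with a transcript and less of it per cell cannot be told apart.

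**Figure D1:**
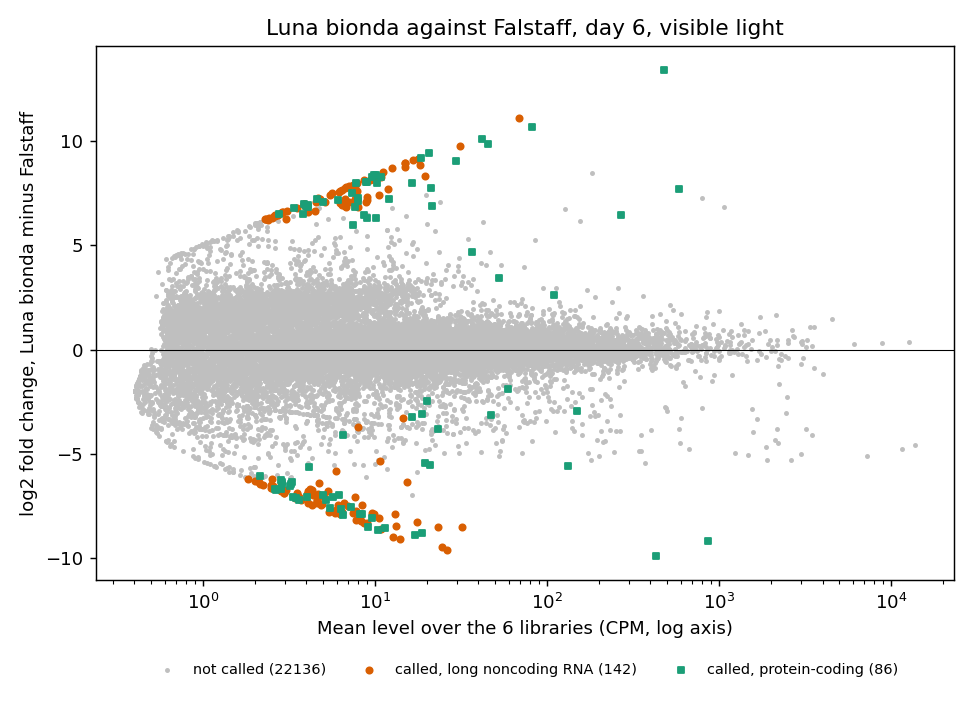
Log2 fold change (Luna bionda minus Falstaff, with a pseudocount of 1 normalized read) against the mean level over the 6 libraries in CPM on a log axis. Each point is a gene, with 142 called long noncoding RNAs as circles, 86 called protein-coding genes as squares and all other genes in grey, and most called genes form bands far from 0 at low and middle levels.

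Most of the transcriptome lay close together in the varieties. Without Falstaff replicate 2, 74.9% of genes differed less than 2-fold, and this share rose with level, from 50.4% in the lowest quintile of genes to 86.3% in the highest quintile (39.5 CPM and above). Called genes were rarer at high levels, at 0.865% of the highest quintile against 4.35% of the lowest. With all 6 libraries 68.7% of genes differed less than 2-fold, and calls were most frequent in the next-lowest quintile, between 2.48 and 7.39 CPM (2.53%), and rarest in the lowest quintile (0.246%). Genes of the organelles and of short structural RNAs gave 0 calls among 548 tested with limma, with 9 under an unadjusted p of 0.05, and 1 call with edgeR. Their median log2 fold change was -2.59, and 496 of them had their highest level in the shallow Falstaff library. Genes that were neither protein-coding nor long noncoding RNAs numbered 536 among those tested, but 209 without that library. Many thus reached the level needed for a test only through it, and the 0 calls say little about the varieties.

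Long noncoding RNAs made up 142 of the 228 genes, or 62.3%, but 8.62% of the genes tested. Of 1928 tested, 7.37% were called, 67 of them in favour of Luna bionda and 75 of Falstaff. Calls on protein-coding genes numbered 86, which is 0.432% of 19900 tested, 42 in favour of Luna bionda and 44 of Falstaff. Without Falstaff replicate 2 the shares were 14.9% of long noncoding RNAs and 1.49% of protein-coding genes. In that fit 139 long noncoding RNAs were higher and 190 lower in Luna bionda, and 147 protein-coding genes were higher and 161 lower. Among 209 tested genes of neither kind it called 3 (1.44%), all lower in Luna bionda.

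The called genes were mainly transcripts read in 1 variety and nearly or wholly missing in the other. In 118 of the 228 genes the 3 libraries of the lower variety held no read at all, and in a further 37 they held 1 to 3 reads together. Of the genes without a read, 65 were higher in Luna bionda and 53 in Falstaff, and 88 were long noncoding RNAs. A count of 0 over the group allows up to 0.0431 CPM in Falstaff (3 of 69627595 reads) and 0.0285 CPM in Luna bionda (3 of 105155549 reads), for counting error only. Bounds on folds scale with these reads, and would fall by a factor of 1.83 or 2.15 without Falstaff replicate 1 or 3, and of 1.7 without Luna bionda replicate 2. Over all genes, tested or not, 189 had at least 10 reads in each Luna bionda library and none in Falstaff. In the other direction, 235 genes had at least 10 reads in both deep Falstaff libraries and none in Luna bionda. Only 12 of the 228 genes had at least 1 CPM in every library.

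Among protein-coding genes higher in Luna bionda, LOC111895045 had the largest fold change. It was at 854, 621 and 1417 CPM in the Luna bionda libraries and at 0.095, 0 and 0 CPM in Falstaff. The 97867 reads of Luna bionda stood against 3 reads of Falstaff, a ratio of pooled rates of 21600 (exact 95% interval 7390 to 105000, limma adjusted p = 0.000807). All 3 Luna bionda libraries were far above all 3 of Falstaff, and the gene had the smallest adjusted p of the comparison. LOC111912471 was less even, at 70.5, 334 and 83.8 CPM against 0.0633, 0 and 0 CPM, with replicate 2 well above the others of its group (ratio 6370, exact 95% interval 1760 to 52600, limma adjusted p = 0.00927), and a ratio of 2690 without that replicate. LOC111920702 was at 103, 79.8 and 69.0 CPM against 0, 0 and 0.0537 CPM, a ratio of 2890 (exact 95% interval 799 to 23800, limma adjusted p = 0.00601). Here the Luna bionda libraries lay close together.

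A further 5 protein-coding genes higher in Luna bionda had lower levels. LOC111905546 was at 34.4, 61.7 and 175 CPM, against 2 reads in all of Falstaff (ratio 3090, exact 95% interval 856 to 25500, limma adjusted p = 0.00927), and the ratio was 1760 without Luna bionda replicate 3. LOC111905547, the gene next to it among those tested, was at 16.4, 26.5 and 18.2 CPM with no read in Falstaff, which makes it at least 472-fold higher (limma adjusted p = 0.0112). Both neighbours were thus read in Luna bionda alone or nearly so, but replicate 3 was highest for the first and replicate 2 for the second. LOC111913535 was at 46.1, 36.6 and 41.9 CPM with no read in Falstaff, at least 964-fold higher (limma adjusted p = 0.00927), and was the most even of these genes. LOC111877255 was at 23.1, 52.2 and 35.7 CPM and likewise without a read in Falstaff, at least 859-fold higher (limma adjusted p = 0.00927). LOC111880262 was at 71.1, 64.4 and 41.6 CPM, with all 10 Falstaff reads in replicate 3 (0.269 CPM), a ratio of mean levels of 659 (limma adjusted p = 0.00966).

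The long noncoding RNAs with the largest differences in this direction had no read in Falstaff. LOC111886953 was at 108, 131 and 175 CPM in Luna bionda, at least 3200-fold above the floor (limma adjusted p = 0.00322), and was the only called long noncoding RNA with a mean above 100 CPM. LOC111905054 was at 115, 39.5 and 32 CPM, at least 1450-fold higher, and its replicate 1 lay well above the others, without which the bound was at least 829-fold. LOC111897892 was at 46.8, 31 and 28.4 CPM, at least 821-fold higher, and LOC111916897 at 34.2, 28.4 and 36.8 CPM, at least 769-fold higher (limma adjusted p = 0.00927 for each of these 3).

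In the other direction, 2 protein-coding genes were among the most abundant of all called. LOC111879914 was at 1276, 190 and 3718 CPM in Falstaff and at 0.202, 7.51 and 3.75 CPM in Luna bionda (log2 fold change -9.21, SE 1.41, limma adjusted p = 0.0311). LOC111886693 was at 1328, 137 and 1113 CPM in Falstaff and at 0.0337, 2.98 and 1.21 CPM in Luna bionda (log2 fold change -9.92, SE 1.33, limma adjusted p = 0.0203). In both genes the shallow replicate 2 was the lowest Falstaff library, and Luna bionda replicate 1 was the lowest of its group, but the groups lay far apart. The sizes rested on single libraries. The log2 fold change of LOC111886693 was -10.99 without Falstaff replicate 2, -8.38 without Luna bionda replicate 1 and -10.85 without Luna bionda replicate 2. That of LOC111879914 was -10.26, -7.65 and -10.15 without the same libraries, and -8.27 without Falstaff replicate 3. Unlike most called genes, both held reads in all 3 libraries of the lower variety.

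The other 6 of the 8 protein-coding genes most in favour of Falstaff had 0 to 8 reads in Luna bionda. LOC111921374 was at 42.4, 14.5 and 45.7 CPM in Falstaff, against 2 reads in Luna bionda (ratio 2300, exact 95% interval 637 to 19000), and LOC128132667 at 53.4, 21.7 and 36.9 CPM against 8 reads (ratio of mean levels 606). LOC111919725 was very even at 25.3, 21.7 and 21.6 CPM against 2 reads (ratio 1220, exact 95% interval 338 to 10100). LOC111883046, at 17.4, 16.9 and 28.2 CPM, and LOC111897174, at 20.9, 19.3 and 14.5 CPM, had no read in Luna bionda and were at least 730-fold and 639-fold higher in Falstaff. The limma adjusted p was 0.0102 for LOC111897174 and 0.00927 for the other genes of this paragraph named so far. LOC111921163 was uneven, at 20.8, 33.7 and 3.31 CPM against no read (at least 676-fold, limma adjusted p = 0.0279), with the highest value in the shallow library, and the bound was at least 423-fold without that library.

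The long noncoding RNAs most in favour of Falstaff were LOC111912920, LOC111884241, LOC111917322 and LOC111899161, each with a limma adjusted p of 0.00927. LOC111912920 was at 42.5, 21.7 and 92.6 CPM against a single read in Luna bionda, a ratio of 7260 (exact 95% interval 1300 to 287000), which was 4410 without Falstaff replicate 3. LOC111884241 was at 44.1, 22.9 and 80.0 CPM against 2 reads, a ratio of 3320 (exact 95% interval 917 to 27400). In both, replicate 3 of Falstaff was highest and the shallow library lowest. LOC111917322 and LOC111899161 had no read in Luna bionda and were at least 985-fold and 894-fold higher in Falstaff, where they lay between 21.8 and 39.6 CPM and between 19.3 and 30.9 CPM.

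**Figure D2:**
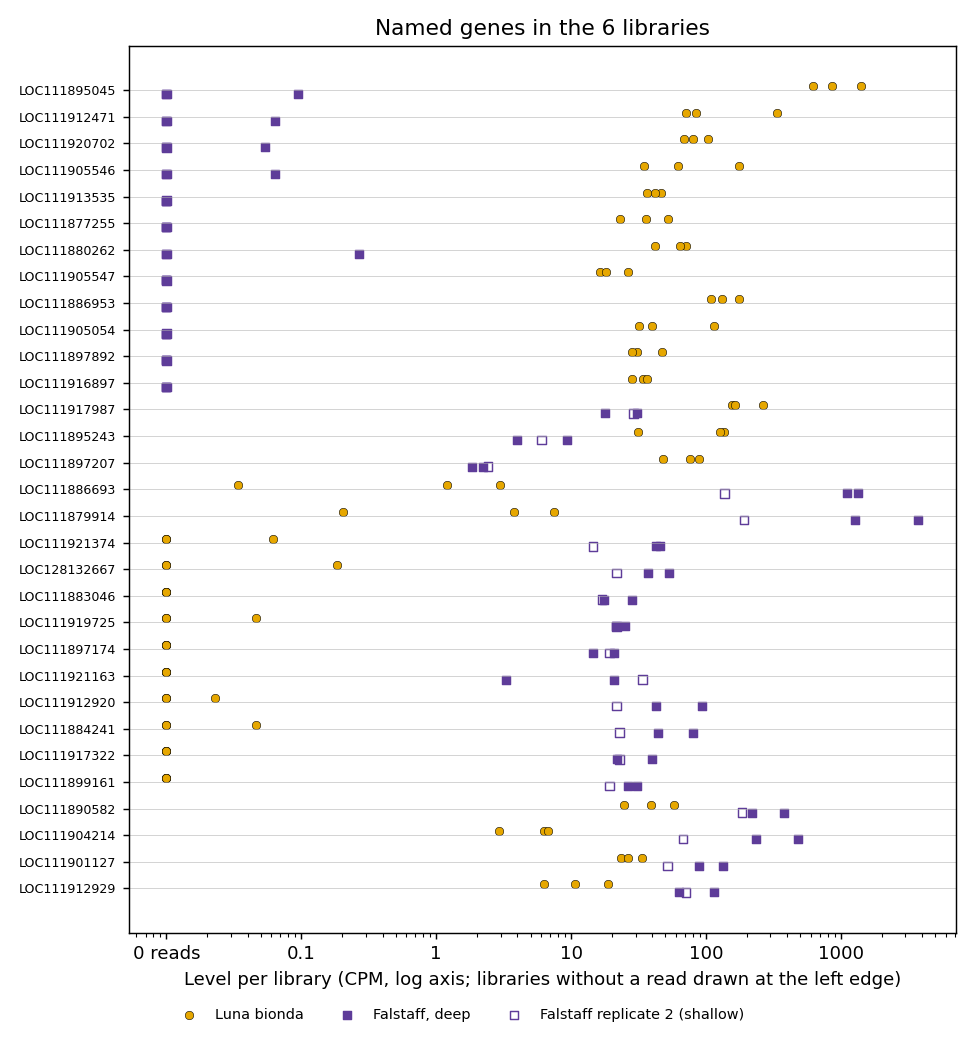
Level of the 31 named genes in each of the 6 libraries, in CPM on a log axis, with libraries without a read at the left edge. Circles are Luna bionda, filled squares the deep Falstaff libraries and open squares the shallow Falstaff replicate 2, and in each gene the circles and squares lie apart.

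Called differences that were graded, in genes clearly read in both varieties, were few. Over all genes tested the SE had a median of 0.618 on the log2 scale. The smallest called difference was 1.90, and smaller graded differences could scarcely be called. A gene without a read in the shallow Falstaff replicate 2 could not count as graded either. The count thus does not tell how many graded differences the varieties have. Of the 12 called genes with at least 1 CPM in every library, 3 were higher in Luna bionda and 9 in Falstaff, and 11 were protein-coding. LOC111917987 was at 266, 156 and 165 CPM in Luna bionda and at 17.7, 28.9 and 30.9 CPM in Falstaff (log2 fold change 2.63, SE 0.40, limma adjusted p = 0.0310). LOC111897207 was at 75.5, 48.0 and 89.1 CPM against 1.84, 2.41 and 2.20 CPM (4.69, SE 0.46, limma adjusted p = 0.00927), with very even Falstaff values. LOC111895243 was at 137, 128 and 31 CPM against 3.99, 6.03 and 9.24 CPM (3.45, SE 0.60, limma adjusted p = 0.0492), and its Luna bionda replicate 3 lay nearest to Falstaff.

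Of the 9 graded genes higher in Falstaff, LOC111904214 had the largest difference. It was at 235, 67.5 and 480 CPM in Falstaff and at 2.90, 6.29 and 6.76 CPM in Luna bionda (log2 fold change -5.57, SE 0.68, limma adjusted p = 0.0142), and its log2 fold change was -6.16 without Falstaff replicate 2 and -4.97 without Falstaff replicate 3. LOC111890582 was at 375, 184 and 217 CPM against 39.4, 24.8 and 58.3 CPM (-2.96, SE 0.44, limma adjusted p = 0.0277). LOC111912929 was at 114, 71.1 and 63.4 CPM against 18.9, 10.8 and 6.27 CPM (-3.16, SE 0.40, limma adjusted p = 0.0174). LOC111901127, at 133, 51.8 and 88.6 CPM against 33.8, 23.6 and 26.5 CPM, had the smallest difference of all called genes (-1.90, SE 0.33, limma adjusted p = 0.0467), and its adjusted p with the edgeR quasi-likelihood test was 0.0558. The other 5 graded genes higher in Falstaff, which the naming rule left out, were LOC111876731, LOC111899658, LOC111903479, LOC111905029 and the long noncoding RNA LOC111898464. Their log2 fold changes lay between -3.79 (LOC111876731) and -2.44 (LOC111905029), with Falstaff levels between 13.3 and 66.2 CPM and Luna bionda levels between 1.61 and 8.48 CPM. All 31 genes named by rule were also called without Falstaff replicate 2, with limma adjusted p-values between 0.00121 (LOC111895045 among others) and 0.0378 (LOC111895243).

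Of the called genes, 10 reached 100 CPM in the higher variety. Besides the 8 already described, these were LOC111897350 and LOC111919658, chosen after their values were seen. LOC111919658 was at 816, 650 and 131 CPM in Luna bionda and at 0.823, 7.23 and 8.36 CPM in Falstaff (log2 fold change 6.48, limma adjusted p = 0.0342). LOC111897350 had the same order of libraries within Luna bionda, at 1781, 1336 and 399 CPM. Replicate 3 was the lowest Luna bionda library for both, and still above all Falstaff libraries.

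Called genes often lay beside each other. Among tested genes in chromosome order on the RefSeq assembly Lsat_Salinas_v11, 30 of the 228 genes (13.2%) had a called gene as a direct neighbour, against 1.99% of all 22192 genes with a place. They formed 16 neighbouring pairs in 14 runs of 2 or 3 genes. In 15 pairs both genes were higher in the same variety, and in no pair did the annotated spans overlap. The gene beside LOC111895045 was LOC111895040, at 8.46, 5.92 and 6.02 CPM in Luna bionda with no read in Falstaff (limma adjusted p = 0.0277). LOC111877255 lay between the long noncoding RNAs LOC111897335, at 29.7, 13.3 and 9.99 CPM in Luna bionda, and LOC111877193, at 6.31, 14.1 and 17.3 CPM, and both had reads in Falstaff replicate 1 alone, at 0.380 and 0.127 CPM. The long noncoding RNA LOC111897892 lay beside the protein-coding LOC111909005, at 29.2, 14.1 and 9.87 CPM with no read in Falstaff.

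In favour of Falstaff, LOC111921163 lay beside LOC111921161, which was at 14.3, 7.23 and 17.8 CPM with no read in Luna bionda (limma adjusted p = 0.0135). In 1 pair the directions were opposite, that of the long noncoding RNA LOC111886651 with the protein-coding LOC111886654. LOC111886651 was at 24.7, 17.0 and 11.8 CPM in Luna bionda and had reads in Falstaff replicate 1 alone (0.253 CPM). LOC111886654 was at 12.6, 8.44 and 16.8 CPM in Falstaff and had reads in Luna bionda replicate 2 alone (0.0462 CPM). All neighbours of named genes given here were picked after the pairs were known.

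The number of calls rested on single libraries. Without Luna bionda replicate 1, 2 or 3 it was 0, 1 and 0, and without Falstaff replicate 1 or 3 it was 59 and 50, of which 4 each were lower in Luna bionda. No called gene changed direction. In each of the 6 fits without a library all 228 genes had the same direction and an unadjusted p under 0.05. The genes were called from these same libraries, with groups that did not overlap. Leaving out a library could thus scarcely reverse a direction, and these fits are no separate test of it. Without a Luna bionda library, the median adjusted p of the 228 genes lay between 0.161 and 0.206, and the smallest was 0.0639, 0.0292 and 0.0595. The edgeR quasi-likelihood test called 412 genes, 178 higher and 234 lower in Luna bionda, with 226 of the 228 among them, and 569 without Falstaff replicate 2. DESeq2 called 1029 genes, 356 higher and 673 lower, with all 228 among them.

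**Figure D3:**
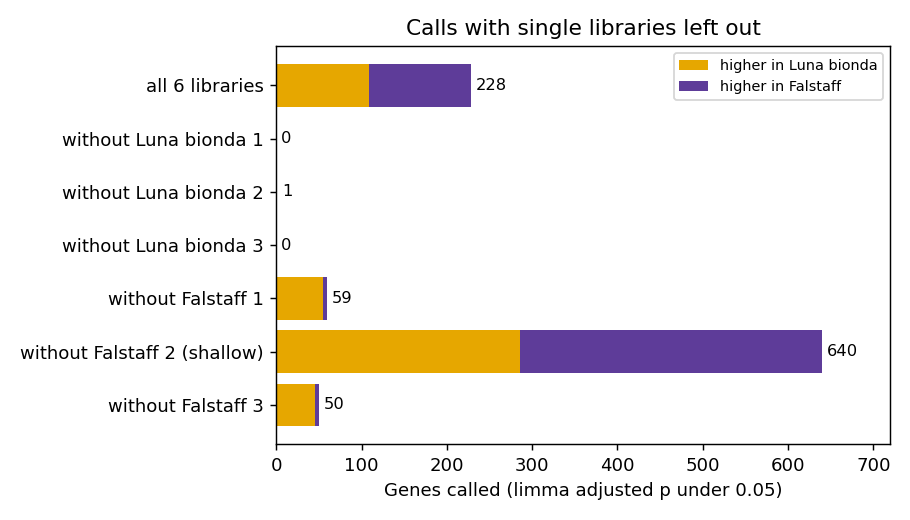
Genes called between the varieties with limma, with all 6 libraries and with each library left out in turn, as stacked bars of genes higher in Luna bionda and higher in Falstaff. The count was 228 with all libraries, 640 without the shallow Falstaff replicate 2, and between 0 and 59 without any other library.

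Most called genes had the same direction in libraries that the comparison did not use. The study holds 8 further deep Luna bionda libraries and 5 further deep Falstaff libraries, at day 0 and under UV. In 213 of the 228 genes (93.4%) every one of these Luna bionda libraries lay on the called side of every one of these Falstaff libraries, which was so for 5.42% of all genes tested. Among long noncoding RNAs this held for 140 of 142, against 20.2% of those tested, and among protein-coding genes for 73 of 86, against 4.11%. Without Luna bionda replicates 2 and 3 of UVB for 2.5 h per day, a choice made after their values were seen, the count was 224 of 228 against 7.16% of all genes tested, and 142 of 142 long noncoding RNAs against 21.9% of those tested.

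The direct comparison of the varieties at day 0 shares no library with that at day 6. By the names of the authors' tables it would set Luna bionda as a day 6 control against Falstaff under UVB. Of the 228 genes, 227 were tested there and all 227 had the same direction, with 180 called. These are 78.9% of the day 6 calls and 62.3% of the 289 day 0 calls (1.34% of 21588 genes tested). Without the shallow libraries on both sides, 454 genes were shared, which is 70.9% of 640 and 68.2% of 666. Under UVB for 2.5 h per day, 215 of 221 genes tested had the same direction and 144 were called, 63.2% of the day 6 calls and 68.9% of the 209 calls there (0.985% of 21214 genes tested). The 6 genes with the opposite direction under UVB were not called there, and no gene was called in the opposite direction in either set. By batch tag, all Luna bionda libraries of this UVB group belong to the number series of the shallow day 6 visible light Falstaff library. The deep Falstaff libraries of UVB do not. Apart from the shallow Falstaff library of UVB, variety and tag series thus cannot be told apart there.

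**Figure D4:**
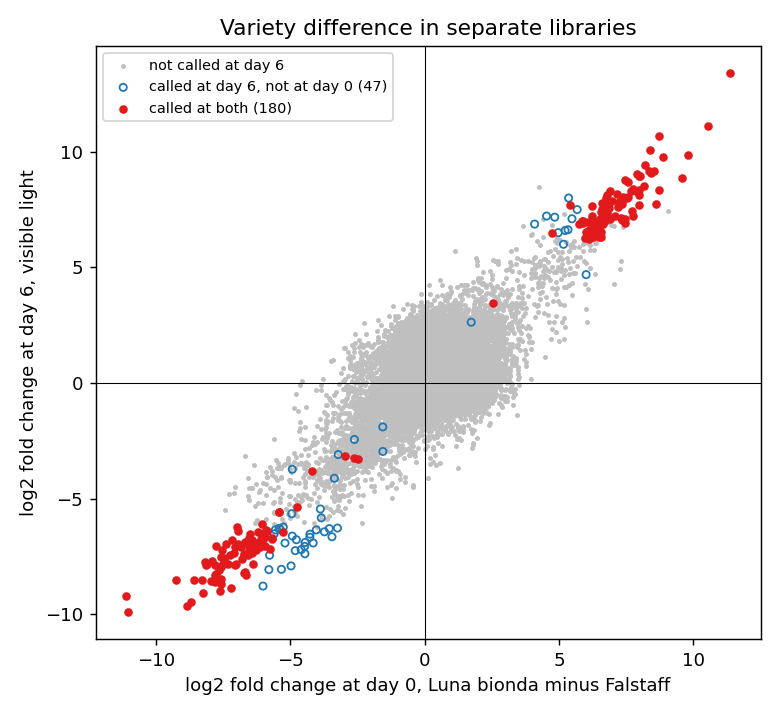
Log2 fold change between the varieties (Luna bionda minus Falstaff) at day 6 under visible light against the same at day 0, each from 6 libraries of its own. Each point is a gene, with 180 genes called at both times as filled circles, 47 called at day 6 only as open circles and genes not called at day 6 in grey, and all 227 called genes have the same sign on both axes.

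No gene was shown to differ between the varieties by a different amount at day 6 than at day 0. The days are those of the labels, and by the names of the authors' tables the 12 libraries would not form this contrast. The interaction of variety and day, fitted over the 12 libraries, gave 0 calls among 22056 genes with limma (0%), and the lowest adjusted p rounded to 1. An unadjusted p below 0.05 was found for 178 genes. The edgeR test also called 0 genes, with 325 below that p, and without the 2 shallow libraries limma called 0 genes, with 978 under it. Over the called genes the absolute interaction had a median of 0.52 on the log2 scale with a median SE of 1.18, against 0.54 and 0.89 over all genes.

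Several graded genes had other values in the other conditions. LOC111890582, with a log2 fold change of -2.96 at day 6, had -1.56 at day 0 (limma adjusted p = 0.272) and 0.14 under UVB (limma adjusted p = 0.938), and its interaction with day was -1.41 (SE 0.64). Its Luna bionda values were 55.2, 24.8 and 40.8 CPM at day 0 and 63.4, 177 and 131 CPM under UVB, so that replicates 2 and 3 of UVB lay among the deep Falstaff libraries of all conditions (125 to 375 CPM). In Falstaff under UVB it was at 32.6, 317 and 254 CPM, with the lowest value in the shallow replicate 1. The deep Falstaff libraries of UVB thus still lay above every Luna bionda library of UVB. LOC111901127 was at 37.3, 165 and 98.4 CPM in Luna bionda under UVB, against 56.2, 83.8 and 42.5 CPM in Falstaff. Its log2 fold change there was 0.94 (limma adjusted p = 0.519). At day 0 it had -1.56 (limma adjusted p = 0.109), near its day 6 value of -1.90, and its interaction with day was -0.34 (SE 0.46). LOC111895243 was at 71.1, 109 and 114 CPM in Luna bionda at day 0 and at 17.9, 2.67 and 6.60 CPM under UVB, with a log2 fold change of 2.53 at day 0 (limma adjusted p = 0.0116) and -0.51 under UVB (limma adjusted p = 0.701). By contrast LOC111904214 kept its difference, with -5.42 at day 0 (limma adjusted p = 0.00502) and -5.97 under UVB (limma adjusted p = 0.0103). LOC111912929 had -2.97 at day 0 (limma adjusted p = 0.00687) and -2.78 under UVB, where it was not called (limma adjusted p = 0.0605).

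Other genes were read in 1 variety alone in every condition. LOC111886953 had no read in any of the 12 Falstaff libraries, and lay between 87.9 and 178 CPM in the deep Luna bionda libraries and at 28.9 CPM in the shallow replicate 1 of UVB for 7.5 h. LOC111897892 likewise had no read in Falstaff in any condition, and lay between 11.8 and 46.8 CPM in every Luna bionda library. In the other direction, LOC111883046, LOC111897174 and LOC111917322 had no read in any of the 12 Luna bionda libraries. In the deep Falstaff libraries they lay between 11.7 and 43.7 CPM, 12.3 and 35.4 CPM, and 16 and 39.6 CPM. LOC111921163 was higher in the shallow libraries of both varieties. In Luna bionda it was read only in the shallow replicate 1 of UVB for 7.5 h, at 4.45 CPM. Its 6 highest Falstaff values, between 17.2 and 38.6 CPM, were those of the 5 shallow libraries and of visible light replicate 1. The other 6 Falstaff libraries, all deep, lay between 0.580 and 3.31 CPM.

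**Figure D5:**
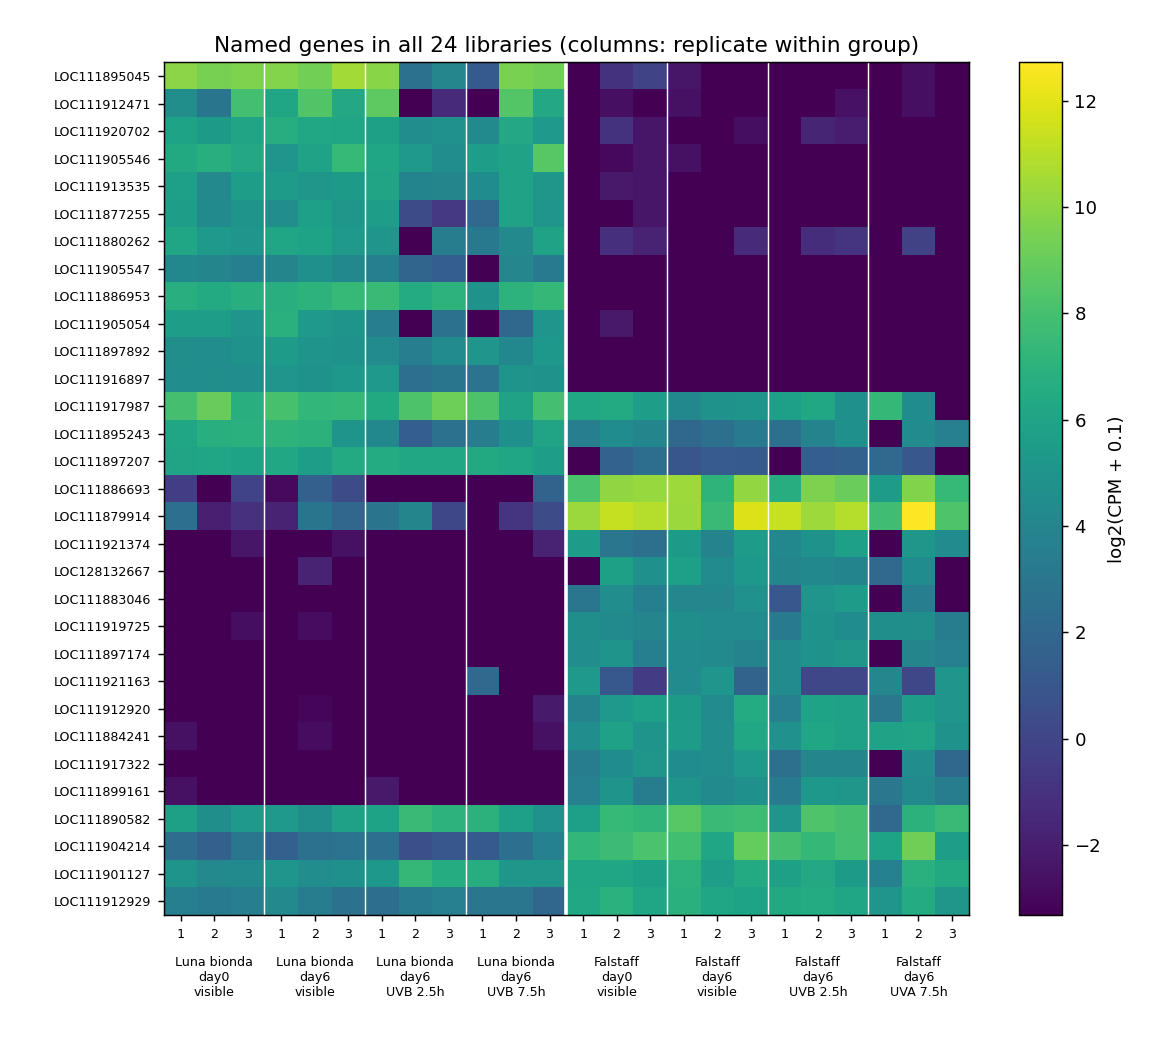
Level of the 31 named genes in all 24 libraries, as log2(CPM + 0.1) in colour, with genes in rows and libraries in columns grouped by variety, day and light, numbered by replicate. The Luna bionda block (left) and the Falstaff block (right) differ in nearly all named genes, and Luna bionda replicates 2 and 3 of UVB for 2.5 h are darker than their group in several genes.

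The authors' deposited table for these varieties uses all 3 Falstaff libraries and Luna bionda replicates 2 and 3, with a shallow UVB library in place of replicate 1, under a day 0 name. There are 477 genes with an adjusted p under 0.05 in the authors' deposited table, and 217 of the 228 genes are among them. The log2 fold change in the authors' deposited table has the opposite sign in all 228 genes, for example -13.00 for LOC111895045 and 9.0 for LOC111886693. Its base is not stated, but in these genes its sign is that of Falstaff minus Luna bionda, so that the directions do not conflict. The 2 comparisons share 5 of 6 libraries and are not independent.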

How the data were processed

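RNA of lettuce leaves was sequenced in 24 libraries, 3 in each of 8 groups. The alignment used STAR and the counting featureCounts 1.6.3, per the submitters' processing notes. The STAR version, genome build, annotation, strand setting and handling of reads with several matches were not given in the sources used here, so that reads of near-identical or antisense genes may have been shared. Normalized signal per gene was deposited by the authors in 7 tables of 6 libraries each. The authors also deposited log2 fold changes, p-values and a test score per gene for each table, with column names that DESeq2 uses, per the file headers. The batch tag in each label gave the column of the sample.

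Each deposited column was made of whole multiples of 1 step. At a relative tolerance of 0.001, 100.0% of values gave whole reads, and these were joined over 31499 genes, of which 31046 matched a single entry of the RefSeq table of assembly Lsat_Salinas_v11. Since the authors' build is not given, no coordinate is printed.

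Genes whose normalized reads averaged at least 10 were tested on log2(reads / median-of-ratios size factor + 1) with the trended test of limma 3.58.1 (R 4.3.3). Alternatives were edgeR 4.0.16, DESeq2 1.42.0, TMM and library-total scaling, pseudocounts of 0.5 and 5, no filter, sample weights, all 24 libraries in 1 fit, a replicate block, and each library left out. The fits were tested on simulated data. Intervals and floors (3 reads) cover counting error only. The named genes were, per direction, the 8 protein-coding genes and 4 long noncoding RNAs with the largest fold change among called genes without overlap and with at least 5 CPM in the higher variety, then up to 4 most abundant called protein-coding genes with at least 1 CPM in every library. Called genes with a symbol of their own were to follow, but there were none. Lists by protein signature could not be filled, since no protein sequences were used here. Members, lists and tests were chosen with earlier results of these data known.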

Additional observations from a re-analysis of the deposited data

How the results depend on the processing

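The 228 calls stayed within 1.5 times under TMM or library-total scaling, pseudocounts of 0.5 and 5, no filter and a fit of all 24 libraries (187 to 272 calls). Over all genes the log2 fold change had a median of 0.07, and of 0.37 under library-total scaling. Other tools and settings gave more calls: 412 with edgeR, 1029 with DESeq2, 569 and 1732 with these without Falstaff replicate 2, and 1428 with sample weights, whose estimation stopped before it converged. Leaving out single libraries gave 0 to 640 calls. The cause was not tested. Same-numbered libraries did not deviate together (correlations of 0.068, -0.111 and -0.099), and a replicate block left 1 call. At day 0 and under UVB, the block left 7 and 0 of 289 and 209 calls, and 666 and 469 genes were called without the shallow library. The interaction gave 0 calls in every fit run, with 64 to 1062 genes under an unadjusted p of 0.05. No named gene changed direction in any alternative, which their lack of overlap made unlikely beforehand. Many lost their call, however. Of the 31 named genes, 30 were no longer called with a replicate block, and 7 in the fit of all 24 libraries. Without Luna bionda replicate 1, 2 or 3 it was 31, 30 and 31 genes, and without Falstaff replicate 1 or 3 it was 15 and 16. Counts for protein signatures were not run. At the depth of Falstaff replicate 2, a gene without a read may lie as high as 3.62 CPM.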

Other observations

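At the 228 genes, the deep libraries outside the comparison lay almost wholly at the level of their own variety. The log2 level was nearer to that of Luna bionda at day 6 in 226 to 228 genes of 6 further Luna bionda libraries, and in 1 to 3 genes of the 5 further Falstaff libraries. The exceptions were Luna bionda replicates 2 and 3 of UVB for 2.5 h per day, with 210 and 216 genes. The protein-coding LOC111895045, at 940 CPM in replicate 1 of that group, was at 6.19 and 17.0 CPM in these libraries, against at most 0.871 CPM in Falstaff. LOC111912471 was at 432 CPM in replicate 1 and at 0 and 0.271 CPM in replicates 2 and 3. The long noncoding RNA LOC111886953, which had no read in Falstaff, was at 178, 92.1 and 135 CPM in the same libraries. The genes higher in Falstaff LOC111912920, LOC111884241 and LOC111917322 had no read in any of the 3. Low values were not confined to this group. In the shallow Luna bionda replicate 1 of UVB for 7.5 h, LOC111895045 was at 2.23 CPM, against 731 and 608 CPM in replicates 2 and 3. LOC111912471 had no read in that shallow library, against 338 and 82.65 CPM.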
